A study of Mus musculus with 33 samples.

Results

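Liver tumours of E2f3b knock-in mice (3bKI, 4 arrays) were compared with normal liver of E2f3a knock-out mice (3aKO, 5 arrays) across 18193 genes, and the level of wild-type liver (wt, 7 arrays) was set beside each gene. The columns were taken by their titles from the deposited values labelled normalization 2. They are 9 of the 16 columns of that normalization, and of the 33 columns that the series holds for 21 arrays. All mice were 12 months old and on a mixed background of FVB/NT, 129S1/Svlmj and C57BL/6NT. The wt and 3aKO RNA came from normal liver, and the 3bKI RNA came from hepatocellular carcinoma that had arisen spontaneously. Each array received biotin-labelled cRNA made from 5 ug of total RNA, and values are log2 expression.

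E2F transcription factors bind the promoters of genes for DNA replication and cell division, and pocket proteins such as the retinoblastoma protein hold them in check until the cell cycle starts. The E2f3 gene gives rise to E2f3a and to E2f3b, which starts from its own promoter within the gene and lacks the first coding stretch of E2f3a. In the published knock-in allele the E2f3b sequence is placed at the E2f3a start, so that both groups lack E2f3a; the labels used here give only the names of the genotypes. No 3bKI normal liver and no 3aKO tumour entered the comparison, so genotype and tumour cannot be told apart in any difference below. Nothing states that the arrays of a group came from separate animals, and p-values measure only the spread between these arrays.

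The tumours, called tumours 1 to 4 after their replicate numbers, carried higher levels of several genes for extracellular matrix, fetal liver products and immediate early transcription factors than 3aKO liver. They carried lower levels of many enzymes of amino acid breakdown and of some genes of bile acid transport and the respiratory chain. With limma and Benjamini-Hochberg adjustment over all genes, 531 genes were higher (2.92%) and 1140 were lower (6.27%) at an adjusted p under 0.05. The genes that rose were dim in 3aKO liver, with a median level of 5.61 against 6.38 for all genes, and those that fell were bright, with a median of 8.63. Most changes were small: the median change was 1.40-fold in each direction, 81 genes rose and 39 fell by at least 2-fold, and 15 rose and 3 fell by at least 4-fold. Arrays of the groups did not overlap in 478 of the 531 and in 1063 of the 1140, where 6.03% of all genes lay without overlap higher in the tumours and 8.95% lower. Scaling moved the split: 31.8% of the calls were higher here, 16.7% when each array was centred on its own median (328 higher, 1638 lower), and 38.2% after quantile normalization (322 higher, 522 lower). The median change over all genes was 0.03.

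**Figure D1:**
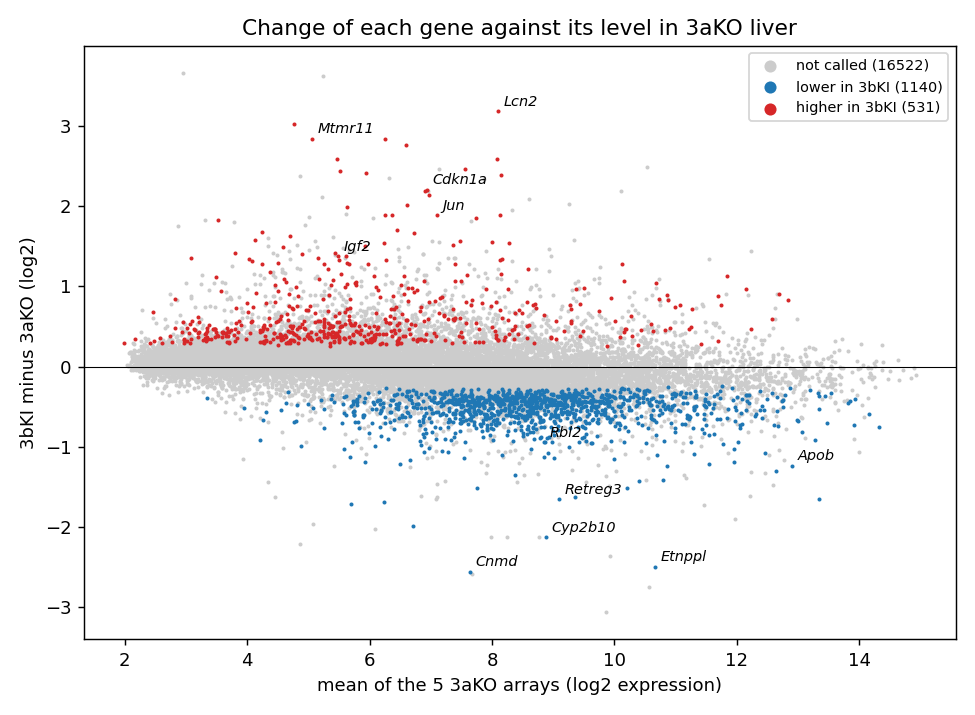
Log2 difference between the 4 3bKI and the 5 3aKO arrays (vertical axis) against the mean log2 level of the 3aKO arrays (horizontal axis), with 1 point for each of 18193 genes. The 531 genes called higher (red) lie mostly at low levels and the 1140 called lower (blue) at middle and high levels.

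Arrays differed in ways that run with the groups. The 3' to 5' signal ratio of the beta-actin control probe sets, a measure of RNA integrity, was 1.06, 1.11, 1.35, 1.25 and 1.25 (log2) in the 3aKO arrays and 0.80, 0.70, 0.84 and 0.87 in tumours 1 to 4. These ranges do not overlap; the ratio of wt 6 was 0.88 and that of wt 7 was 0.65, while the other 5 wt arrays lay between 1.15 and 1.37. The same ratio of the GAPDH control did not separate the groups: it ran from 0.15 to 0.26 in 3aKO and from 0.14 to 0.18 in the tumours, and was 0.30 in wt 6 and 0.20 in wt 7. By Xist and Y-linked genes, 3 of the 5 3aKO arrays were female and 2 male. Among the wt arrays, wt 1, wt 4, wt 5 and wt 7 were male and wt 2, wt 3 and wt 6 female. The fits against wt had no term for sex. Tumours 1, 3 and 4 were female. Tumour 2 had a low Xist level (6.56) and low Y-linked genes (mean 3.16), so its sex was unclear, and it had the highest value of all 16 arrays on the second principal component. With sex as a covariate and tumour 2 left out, 62 genes were higher and 83 lower, and with females alone 16 were higher and 15 lower. The tumours in both fits were all female, so both gave the same change for each gene. All 531 and all 1140 genes kept their direction, which non-overlapping groups fixed in advance for most of them. With the beta-actin ratio as a covariate limma called 0 genes (1088 at an unadjusted p under 0.05), and the change turned its direction in Dnaic1, Atr, Ei24, Cth, Herpud1 and Cela3b among the genes named below. The ratio separates the groups, so this fit cannot tell group and ratio apart, and its standard errors were wider. Mtmr11 changed by 2.13 ± 0.86 in it, against 2.84 ± 0.35 without the ratio, and Jun by 1.33 ± 0.58 against 1.89 ± 0.24.

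The counts also depended on single arrays, which the limma fits without 1 array at a time showed. Without 3aKO replicates 1 to 5 in turn, 369, 207, 227, 126 and 157 genes were higher and 900, 519, 617, 364 and 429 were lower. Without tumours 1 to 4 in turn, 509, 306, 220 and 232 were higher and 931, 631, 464 and 650 lower. None of the 531 or 1140 genes changed direction in these fits, which non-overlapping groups fixed in advance for most of them. Of the 126 genes named by rule 105 were called, and 41 of these passed without each array in turn. They include Cdkn1a, Jun, Ly6d, Mtmr11, Col5a2, Mmp12, Anxa2, Col1a1, Col1a2, Igf2, Ifi27l2b and Oasl1 among those that rose, and Rbl2, Cnmd, Etnppl, Apob, Retreg3, Abcc6, Sult2a8, Pcx, Sdha, Ndufs1 and Amacr among those that fell. The other 64 lost their call without at least 1 array, among them Afp, Lcn2, Btg2, Cyp2b10, Oat, Cth and Tdo2.

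The wild-type mean lay on the 3aKO side of the midpoint for most of the genes that changed, and for most of all genes. On a scale where the 3aKO mean is 0 and the tumour mean is 1, the median place of the wt mean was 0.24 over the 531 genes that rose and 0.25 over the 1140 that fell. The wt mean lay below 0 in 109 of the genes that rose, between 0 and the midpoint in 319, between the midpoint and 1 in 100, and beyond the tumours in 3. Of the genes that fell the same counts were 111, 902, 125 and 2. In 137 of the 531 and 262 of the 1140 every wt array lay on the 3aKO side of every tumour, which held for 4.25% of all genes in either direction. Among genes that changed at least 2-fold the wt mean was on the 3aKO side of the midpoint in 95.1% of the 81 that rose and 84.6% of the 39 that fell, where 64.5% of all genes had it there. Against wt itself, limma called 199 genes higher (1.09%) and 178 lower (0.978%) in the tumours; 3aKO against wt gave 0 calls, with 1360 genes at an unadjusted p under 0.05.

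**Figure D2:**
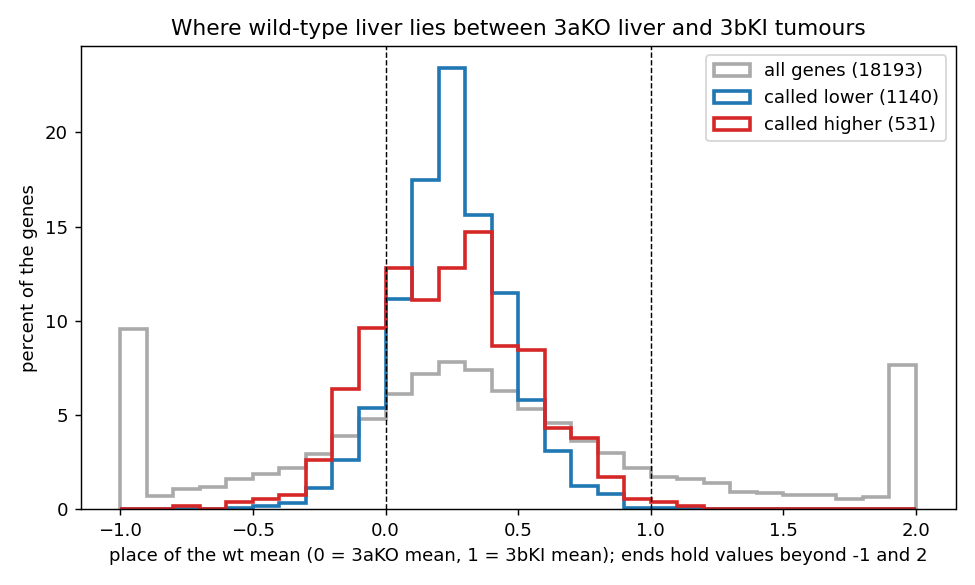
Place of the wt mean on the way from the 3aKO mean (0) to the 3bKI mean (1), as percent of the genes in each bin, for all 18193 genes (grey), the 531 called higher (red) and the 1140 called lower (blue). Both called groups peak between 0 and the midpoint; the end bins hold values beyond -1 and 2.

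The wt arrays were not alike in this. Over the genes that rose, the median place of wt 1 to wt 5 was 0.04 to 0.21, that of wt 6 was 0.42 and that of wt 7 was 0.65; over the genes that fell the values were 0.02 to 0.20, 0.49 and 0.73. The arrays wt 6 and wt 7 are the normal livers with a beta-actin ratio under 1, as in the tumours, which was noticed after the values were seen. Their ratios lie just outside the range of the tumours, 1 on each side. They lay toward the tumours, compared with the other wt arrays, in 466 of the 531 genes, 1038 of the 1140 and 12834 of all 18193 (70.5%). No 3aKO array had such a ratio, so the comparison with 3aKO could not be made within arrays of low ratio. The tumours could be set against wt 6 and wt 7 alone, a fit added after the values were seen: limma called 0 genes (1025 at an unadjusted p under 0.05, smallest adjusted p = 0.204). Against wt 1 to wt 5 it called 538 genes higher (2.96%) and 919 lower (5.05%), with more arrays in the fit. Over the 531 genes the median difference of the tumours was 0.20 from wt 6 and wt 7 and 0.44 from wt 1 to wt 5, and over the 1140 genes it was -0.19 and -0.44. In 129 of the genes that rose and 256 of those that fell, all 12 normal livers lay apart from all 4 tumours, wt 6 and wt 7 included; over all genes this held for 1.12% with the tumours higher and 1.71% with them lower, and the called genes had been chosen for their separation from 3aKO.

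**Figure D3:**
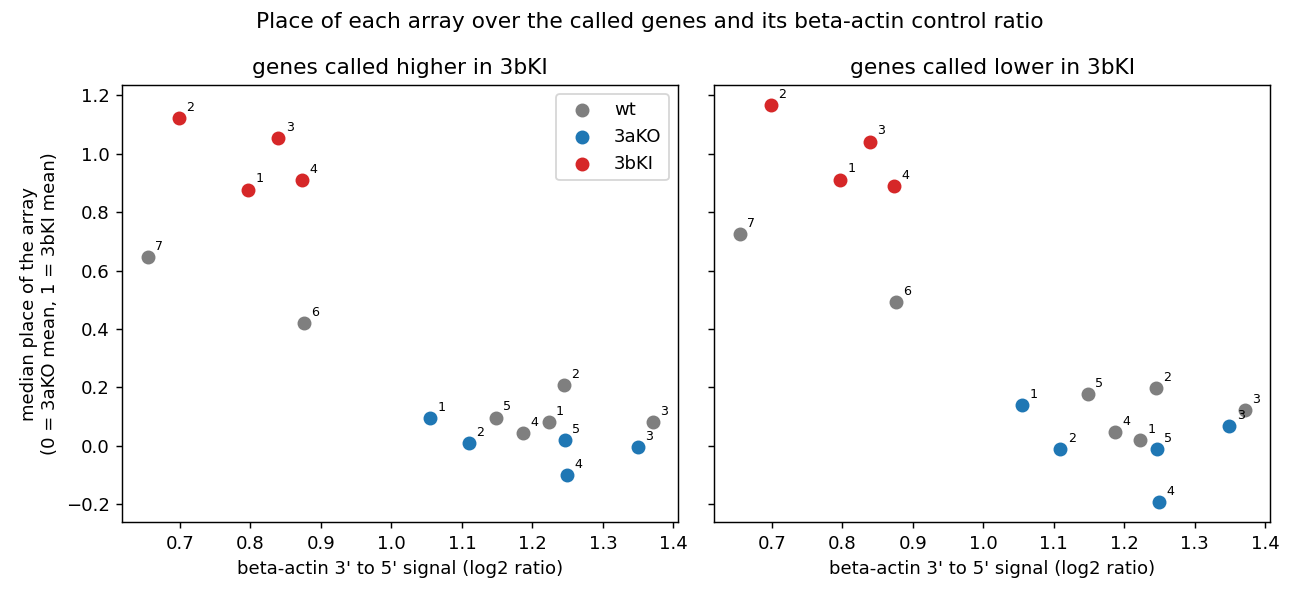
Median place of each array between the 3aKO mean (0) and the 3bKI mean (1) over the genes called higher (left) and lower (right), against its log2 3' to 5' ratio of the beta-actin control. The 4 tumours (red) and wt 6 and wt 7 (grey, numbered) have ratios of 0.88 or less, and wt 6 and wt 7 lie between the other normal livers and the tumours.

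The highest probe sets of E2f1, E2f2, E2f3, E2f7 and E2f8 did not pass the test, and a second E2f3 probe set did. E2f3 measured 6.25, 6.74, 6.62, 6.64 and 6.30 in 3aKO liver and 6.58, 7.01, 6.95 and 6.74 in the tumours. The groups overlap, and the difference of 0.31 ± 0.13 (SE) did not pass the test (limma, adjusted p = 0.155); the wt arrays ran from 6.42 to 6.93. A second E2f3 probe set measured 5.19, 5.38, 5.20, 5.08 and 4.92 in 3aKO and 5.61, 5.65, 5.52 and 5.54 in the tumours. These values do not overlap, and its difference of 0.43 ± 0.10 passed when every probe set was tested on its own (limma, adjusted p = 0.0285). On this probe set the wt arrays ran from 4.89 to 5.43, below all tumours. The files do not say which exons the probe sets cover, so they check neither allele. E2f1 and E2f2, the other activators of the family, differed by 0.20 ± 0.11 and 0.13 ± 0.14 (limma, adjusted p = 0.267 and 0.545), and their groups overlap. E2f7 and E2f8, repressors of the family, differed by -0.44 ± 0.51 and 0.18 ± 0.31 (limma, adjusted p = 0.583 and 0.715).

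Among the 13 measured genes of the E2F family, its dimer partners and the pocket proteins, 0 rose and 2 fell (15.4%, where 6.27% of all genes fell). The median change was -0.03. The gene that fell most was Rbl2, which encodes p130, the pocket protein that holds E2F targets silent in resting cells. Rbl2 measured 8.87, 8.85, 8.62, 8.93 and 8.99 in 3aKO liver and 8.25, 7.65, 7.78 and 7.97 in the tumours. Every tumour lies below every normal liver, wt included (8.47 to 9.10), and the change was -0.94 ± 0.13 (limma, adjusted p = 0.00938). Tfdp2, a dimer partner of the E2F proteins, also fell, by 0.52 ± 0.13 (limma, adjusted p = 0.0379), without overlap with 3aKO; the wt arrays, at 7.64 to 8.04, overlapped both groups. The retinoblastoma gene Rb1 had a difference of -0.54 ± 0.15 (limma, adjusted p = 0.0512) and Tfdp1 one of -0.32 ± 0.10 (limma, adjusted p = 0.0698).

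The promoter windows of E2f3 are shown because the genotypes concern its separate starts. RefSeq (GRCm38.p6) gives E2f3 windows at chr13:29986014-29986313 and chr13:29984342-29984641, both on the minus strand, each with 250 bases before a start and 50 after it, and the starts lie 1672 bases apart. The table does not say which product each start gives. Both strands were searched for the E2F forms TTTCGCGC, TTTGGCGC, TTTCCCGC and TTTGCCGC, for TTTGAA (the CHR, an element of cell cycle genes) and for CCAAT; no form contains another. Capitals in window 1 mark TTTGAA, 23 bases before the start, and GCGGGAAA, the opposite strand of TTTCCCGC, 11 bases before it; window 1 also holds 3 CCAAT, left in lower case. Window 2 holds none of these letters.
E2f3 window 1: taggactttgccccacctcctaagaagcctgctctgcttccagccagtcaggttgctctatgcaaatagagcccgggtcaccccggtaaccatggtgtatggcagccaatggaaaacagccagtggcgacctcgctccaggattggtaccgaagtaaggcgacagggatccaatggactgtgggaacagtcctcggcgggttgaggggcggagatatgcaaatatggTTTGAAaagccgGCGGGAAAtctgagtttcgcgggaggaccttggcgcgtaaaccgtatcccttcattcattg
E2f3 window 2: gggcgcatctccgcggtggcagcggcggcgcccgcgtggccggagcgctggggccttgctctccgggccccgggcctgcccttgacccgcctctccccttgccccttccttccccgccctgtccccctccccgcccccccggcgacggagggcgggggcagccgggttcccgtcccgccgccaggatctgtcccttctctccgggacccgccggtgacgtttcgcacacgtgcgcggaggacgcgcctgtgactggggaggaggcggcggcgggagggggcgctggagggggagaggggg
Any of the E2F forms is found in 2.26% of all 32851 windows, TTTGAA in 17.9% and CCAAT in 37.4%. A match is a description of letters and not a binding site.

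Genes of DNA replication and of mitosis are the classical targets of E2F. Of 48 measured replication and G1/S genes 1 rose and 1 fell (2.08% each, where 2.92% of all genes rose and 6.27% fell), and the median change was 0.07. Ccne1, whose cyclin E1 drives entry into S phase, measured 5.89, 5.95, 6.04, 5.97 and 5.81 in 3aKO and 6.35, 6.66, 6.19 and 6.60 in the tumours. The groups do not overlap, the change was 0.52 ± 0.11 (limma, adjusted p = 0.0229), and the wt mean lay 0.22 of the way to the tumours. For Ccne1 wt 6 and wt 7 lay at 0.85 and the other wt arrays at -0.03. Gins1, a subunit of the replicative helicase complex, fell by 0.42 ± 0.11 (limma, adjusted p = 0.0415), with tumour 2 overlapping 3aKO.

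Of 54 measured mitosis and G2/M genes 1 rose and 1 fell (1.85% each, where 2.92% of all genes rose and 6.27% fell). Yet 51 differences were above 0 and the median was 0.60. With the beta-actin ratio as a covariate the median was -0.25. The tumours were unlike each other: the median over these genes, against the 3aKO mean, was 0.05 in tumour 1, 1.70 in tumour 2, 0.61 in tumour 3 and 0.14 in tumour 4. In tumour 2, 48 of the 54 lay above every 3aKO array, and in tumours 1, 3 and 4 the counts were 17, 40 and 18; over all genes the shares were 28.2%, 28.9%, 24.2% and 25.6% in tumours 1 to 4. Mki67, which encodes the Ki-67 proliferation antigen and was chosen after its values were seen, measured 4.30, 8.33, 6.71 and 5.16 in tumours 1 to 4. The 3aKO arrays measured 4.66, 4.28, 5.32, 4.36 and 4.83, so tumours 2 and 3 lie above them and tumours 1 and 4 among them; the difference was 1.44 ± 0.68 (limma, adjusted p = 0.188). Birc5, the gene of the mitotic regulator survivin and likewise chosen afterwards, measured 4.2, 8.56, 6.40 and 4.18 in the tumours and 4.23 to 4.56 in 3aKO, with adjusted p = 0.225 by limma. Without tumour 1, 2 or 4, 3 genes of the list rose, and without tumour 2 its median was 0.30; 8 rose and 0 fell when wt joined the fit.

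The mitosis gene that rose was Pttg1, the gene of securin, which guards the separation of sister chromatids. It measured 8.51, 8.74, 8.45, 8.67 and 8.68 in 3aKO and 9.16, 9.24, 8.97 and 9.15 in the tumours. Tumours and 3aKO liver were apart, the change was 0.52 ± 0.09 (limma, adjusted p = 0.0159), and the highest wt array, 9.15, reached the tumours. The other Pttg1 probe sets differed by 0.31 and 0.23 and did not pass (limma over all probe sets, adjusted p = 0.526 and 0.34). Cks2, a small partner of cyclin-dependent kinases, fell by 0.43 ± 0.08 (limma, adjusted p = 0.0197). Its wt mean lay at 1.19, beyond the tumours, with a wt median of 9.15 against 9.08 to 9.26 in the tumours.

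The E2F forms and TTTGAA were frequent in these lists and not among the genes that changed. Any E2F form was found in the windows of 17 of the 39 replication genes with a window (43.6%), and TTTGAA in 32 of the 45 mitosis genes (71.1%), against 3.81% and 15.7% of the 14452 tested genes with a window. Of the genes that rose, 404 have a window, and 2.97% hold an E2F form and 13.9% TTTGAA; of the 936 that fell, 3.53% and 12.5% do. Of Ccne1, Gins1, Pttg1 and Cks2, the 4 called members of both lists, 3 have a window, and 0 of these hold an E2F form or TTTGAA.

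Cdkn1a, which encodes p21, an inhibitor of cyclin-dependent kinases and a target of p53, had the smallest adjusted p of the named genes that rose. Cdkn1a measured 7.31, 6.90, 6.72, 6.48 and 7.24 in 3aKO liver and 9.08, 8.88, 9.40 and 9.18 in tumours 1 to 4. All tumours lie far above all 3aKO arrays, and the change was 2.20 ± 0.18 (limma, adjusted p = 0.00178); in females alone it was 2.13 (limma, adjusted p = 0.013). The wt arrays ran from 6.59 to 9.21 with a median of 7.22, so some wt livers reached the tumours.

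Of 29 measured p53 targets 4 rose (13.8%) and 1 fell (3.45%), where 2.92% of all genes rose and 6.27% fell. The median change was 0.34, and without 1 array at a time 1 to 4 rose, Cdkn1a always among them. Besides Cdkn1a, Btg2, an antiproliferative gene, rose by 1.85 ± 0.49, Polk, a translesion DNA polymerase, by 0.54 ± 0.14 and Gtse1, a G2 and S phase gene, by 0.34 ± 0.09 (limma, adjusted p = 0.0458, 0.0443 and 0.0443). Ei24, an endoplasmic reticulum protein gene, fell by 0.65 ± 0.17 (limma, adjusted p = 0.0443). Mdm2, which encodes the ubiquitin ligase of p53, had a difference of 0.09 ± 0.12 and Ccng1 one of 0.63 ± 0.33 (limma, adjusted p = 0.647 and 0.234). Ccng1 measured 9.74, 9.90 and 10.13 in tumours 1, 3 and 4 and 8.29 in tumour 2, below all 3aKO arrays (8.72 to 9.41); both were chosen after their values were seen.

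Several transcription factors of the AP-1 family and other immediate early genes, which respond within minutes to growth and stress signals, were higher in the tumours. Of 27 measured genes 6 rose (22.2%) and 0 fell, where 2.92% of all genes rose and 6.27% fell. The median change was 0.49, and 25 differences were above 0. Jun measured 7.16, 7.09, 7.14, 7.46 and 6.64 in 3aKO liver and 8.52, 9.73, 9.0 and 8.68 in the tumours. Every tumour lies above every normal liver, with wt at 6.88 to 7.65, and the change was 1.89 ± 0.24 (limma, adjusted p = 0.00878). Atf3, a stress-induced factor that pairs with Jun, rose by 1.12 ± 0.28 and Jund by 0.72 ± 0.10 (limma, adjusted p = 0.0401 and 0.0109), both with all normal livers below all tumours. Ier3, an early response gene, rose by 1.01 ± 0.27 and Ccn1, a matricellular protein gene, by 0.59 ± 0.16 (limma, adjusted p = 0.0449 and 0.0473). The median over the list was 0.14, 0.95, 0.57 and 0.24 in tumours 1 to 4. Without 3aKO replicate 1 or tumour 1, 4 and 8 genes rose, and without any other array 2 did.

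Windows of Cdkn1a and Jun are shown because they rank among the genes with the clearest increase and hold known types of element. The p53 form, CATG followed by any 6 bases and CATG, and TGACATCA, an AP-1-like element, were added to the search after the values of these genes were seen. RefSeq (GRCm38.p6) places Cdkn1a window 1 at chr17:29090729-29091028 on the plus strand and Jun window 1 at chr4:95052173-95052472 on the minus strand. Capitals mark the p53 form 48 bases before the start in Cdkn1a and the AP-1-like form 45 bases before the start in Jun.
Cdkn1a window 1: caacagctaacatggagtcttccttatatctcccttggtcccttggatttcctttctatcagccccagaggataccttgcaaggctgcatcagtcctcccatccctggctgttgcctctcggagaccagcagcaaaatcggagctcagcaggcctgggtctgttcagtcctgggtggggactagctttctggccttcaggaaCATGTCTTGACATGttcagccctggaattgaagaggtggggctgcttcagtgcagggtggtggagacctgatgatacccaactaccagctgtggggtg
Jun window 1: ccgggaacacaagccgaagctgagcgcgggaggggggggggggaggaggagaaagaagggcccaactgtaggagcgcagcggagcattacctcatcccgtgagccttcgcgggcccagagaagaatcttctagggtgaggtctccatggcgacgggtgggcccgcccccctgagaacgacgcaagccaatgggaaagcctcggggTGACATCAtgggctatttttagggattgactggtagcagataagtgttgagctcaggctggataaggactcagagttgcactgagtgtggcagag
Both strands were searched; a second Cdkn1a window holds none of the forms. The p53 form is found in 0.712% of all windows and TGACATCA in 3.62%. Of the tested genes with a window 0.477% hold the p53 form, of those that rose 0.495% and of those that fell 0.00%; for TGACATCA the shares are 2.89%, 4.70% and 1.18%.

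Several genes of the fetal liver and of liver cancer were higher in the tumours. Of 25 measured genes 6 rose (24.0%) and 0 fell, against 2.92% and 6.27% of all genes. Of the differences 23 were above 0, and the median change was 1.11, the highest median of the 41 lists. The median over the list was 0.41, 1.36, 0.95 and 0.58 in tumours 1 to 4 and between -0.13 and 0.09 in the 3aKO arrays. Leaving out 3aKO replicates 1 to 5 in turn gave 3, 3, 4, 2 and 2 genes that rose, and without tumours 1 to 4 in turn 9, 9, 3 and 5 did. For 5 of the 6 (Afp, Dlk1, Igf2, Krt8 and Ly6d) all 12 normal livers lay below all tumours, as they did for 129 of the 531 genes that rose.

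Afp, alpha-fetoprotein, the serum protein of fetal liver, measured 5.47, 5.52, 5.26, 5.42 and 5.49 in 3aKO liver and 6.19, 6.80, 6.32 and 8.10 in the tumours. Tumour 4 was the highest, no tumour overlaps a normal liver, and the change was 1.42 ± 0.33 (limma, adjusted p = 0.0318). The other Afp probe sets, dimmer in 3aKO, differed by 3.26, 1.34, 0.55 and 0.13 (limma over all probe sets, adjusted p = 0.00386, 0.0258, 0.0326 and 0.533). Igf2, the fetal insulin-like growth factor, measured 5.63, 5.32, 5.54, 5.41 and 5.50 in 3aKO and 6.41, 6.78, 7.80 and 6.42 in the tumours. Here tumour 3 was the highest; the change was 1.37 ± 0.25 (limma, adjusted p = 0.0176), and wt lay at 4.89 to 5.65. Ly6d, a surface antigen seen in liver tumours, measured 6.45, 5.57, 7.42, 5.98 and 5.82 in 3aKO and 8.71, 8.86, 9.84 and 8.92 in the tumours. The groups do not overlap and the change was 2.84 ± 0.37 (limma, adjusted p = 0.00879); wt lay at 5.41 to 7.97. Krt8, a keratin of hepatocytes and bile ducts, rose by 0.82 ± 0.17 and Dlk1, a fetal surface protein gene, by 0.57 ± 0.14 (limma, adjusted p = 0.0225 and 0.0401).

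Lcn2, an iron-scavenging acute phase protein gene, had the largest change of the called list members and one of the weakest tests. It measured 8.64, 6.06, 10.03, 6.78 and 9.01 in 3aKO liver and 9.90, 11, 13.32 and 10.91 in the tumours, so tumour 1 overlaps 3aKO. The change was 3.18 ± 0.87 (limma, adjusted p = 0.0496). The wt arrays ran from 7.11 to 13.28, with a median of 10.55. Golm1 and Gpc3, known tumour markers chosen here after their values were seen, were highest in tumour 2 (10.01 and 8.37) and had limma adjusted p = 0.0655 and 0.249.

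**Figure D4:**
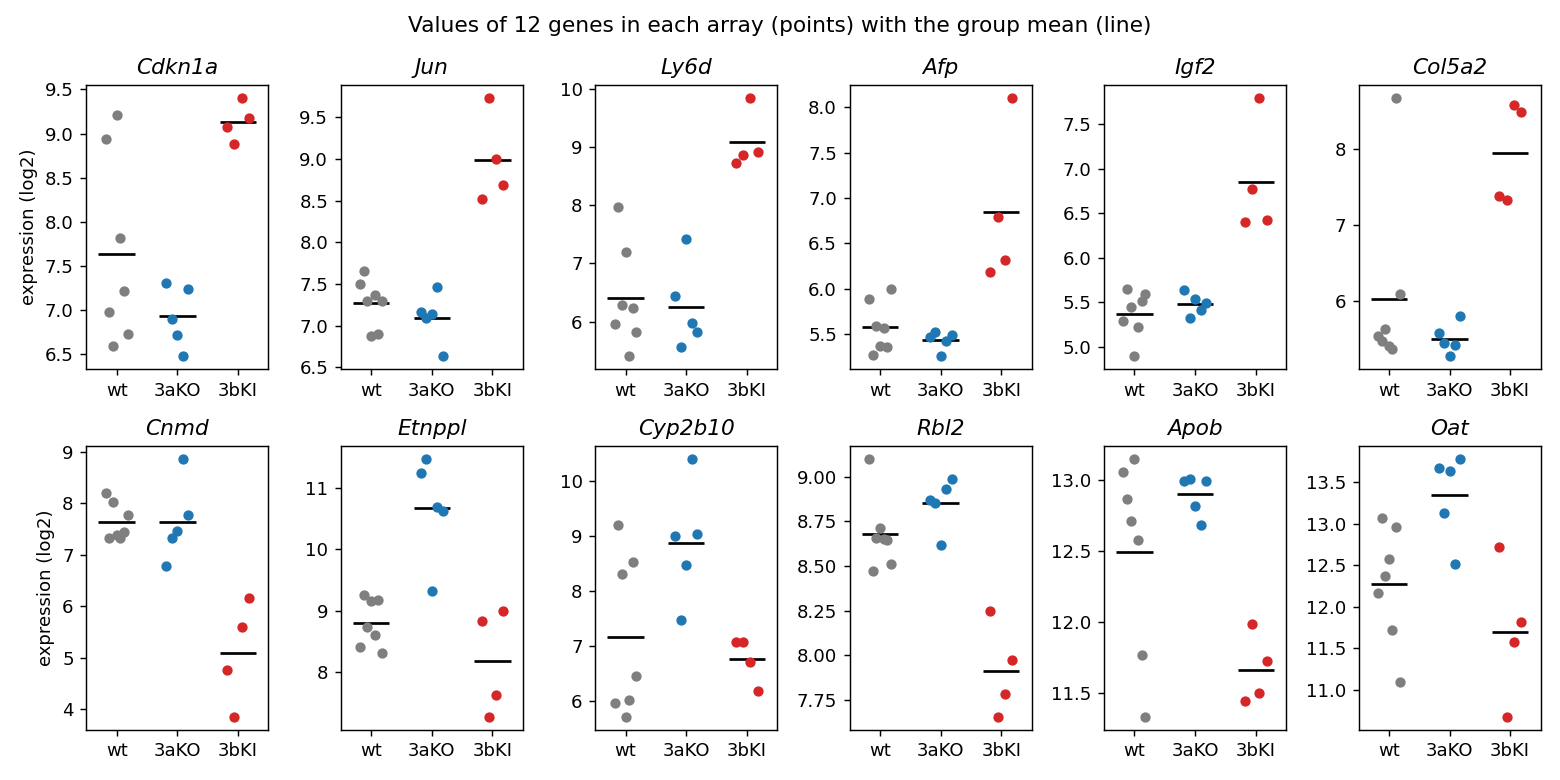
Log2 expression of 12 genes in each wt (grey, 7), 3aKO (blue, 5) and 3bKI (red, 4) array, with the group mean as a line. Jun, Ly6d, Afp, Igf2, Cnmd and Rbl2 separate all tumours from all normal livers, whereas wt overlaps the tumours in Cdkn1a, Col5a2, Cyp2b10, Apob and Oat.

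Many genes of extracellular matrix and its remodelling were higher in the tumours. Of 53 measured genes 14 rose and 0 fell, against 2.92% and 6.27% of all genes, and the median change was 0.56. The genes that rose were the fibrillar collagens Col1a1, Col1a2, Col3a1 and Col5a2, the basement membrane collagens Col4a1 and Col4a2, Col6a3, the matrix proteins Eln, Fbln5 and Tnc, the elastase Mmp12, the protease inhibitor Timp1, and Anxa2 and Tgfb1. In 9 of the 14 all normal livers lay below all tumours, as they did in 129 of the 531 genes that rose. Of the 53, 11, 7, 7, 7 and 7 rose without 3aKO replicates 1 to 5 in turn, and without tumours 1 to 4 in turn 19, 18, 7 and 9 did. With sex as a covariate 6 rose and 0 fell.

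Col5a2 measured 5.59, 5.45, 5.29, 5.43 and 5.82 in 3aKO liver and 7.39, 7.33, 8.58 and 8.49 in the tumours. Tumours and 3aKO liver were apart and the change was 2.43 ± 0.27 (limma, adjusted p = 0.00573); 1 wt array reached 8.67, while the wt median was 5.54. Mmp12, macrophage elastase, measured 3.60, 3.14, 3.65, 3.37 and 3.90 in 3aKO and 4.84, 6.62, 4.98 and 4.97 in the tumours. Tumour 2 was the highest, the change was 1.82 ± 0.34 (limma, adjusted p = 0.018), and wt lay at 2.98 to 3.82. Anxa2, a membrane-binding annexin gene, measured 8.32, 8.24, 8.14, 8.27 and 8.42 in 3aKO and 9.22, 10.86, 9.64 and 9.55 in the tumours. All normal livers, with wt at 8.01 to 8.60, lie below all tumours, and the change was 1.54 ± 0.27 (limma, adjusted p = 0.0164). Col3a1 rose by 1.55 ± 0.37 and Col1a1 by 1.15 ± 0.16 (limma, adjusted p = 0.0353 and 0.0109), and in both the wt mean was slightly below that of 3aKO (places of -0.10 and -0.05). Tgfb1, the cytokine that drives matrix production, rose by 0.59 ± 0.16 (limma, adjusted p = 0.0497).

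Stellate cells and fibroblasts are the source of most collagen in liver. Of 22 measured markers of these cells 4 rose (18.2%, where 2.92% of all genes rose) and 0 fell. Those that rose were Col1a1, Col1a2, Col3a1 and Tagln, and the median of the list was 0.38, -0.42, 0.59 and 0.65 in tumours 1 to 4. The list shares 5 members with the matrix list, the 3 collagens among them; of the other 17 markers 1 rose, and their median was 0.24, -0.51, 0.32 and 0.54. The mean level of the list ran from 7.39 to 7.80 in 3aKO and from 7.31 to 8.33 in the tumours, and no marker was at 0. Tumour 2, with the lowest value for stellate markers, had a median of 0.29 over the matrix genes, against 0.32, 0.80 and 0.73 in tumours 1, 3 and 4. In bulk tissue, more cells of a type and more RNA per cell cannot be told apart, and the part of the stellate markers in the result was not tested.

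Genes of the urea cycle and of amino acid breakdown, which hepatocytes use to clear nitrogen, fell in part. Of 40 measured genes 18 fell and 0 rose, where 6.27% of all genes fell, and all 40 differences were below 0, from -1.65 to -0.09 with a median of -0.49. In tumours 1 to 4, 28, 30, 35 and 29 of the 40 lay below every 3aKO array and 0 lay above; over all genes the shares below were 24.5%, 27.3%, 27.5% and 20.8%. The median of the list, against the 3aKO mean, was -0.34, -0.60, -0.72 and -0.32 in tumours 1 to 4; some wt livers were low as well, with -0.34 in wt 7 and -0.25 in wt 4. When 3aKO replicates 1 to 5 were left out in turn, 13, 10, 10, 9 and 5 of the 40 fell, and without tumours 1 to 4 in turn 17, 10, 6 and 14 did. With sex as a covariate 2 fell.

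The decline reached several routes. Oat, ornithine aminotransferase, measured 13.67, 13.13, 13.64, 12.52 and 13.78 in 3aKO liver and 12.72, 10.67, 11.57 and 11.81 in the tumours. Tumour 1 overlaps a 3aKO array, the change was -1.65 ± 0.38 (limma, adjusted p = 0.0319), and the wt mean lay nearer the tumours, at 0.65. Cth, the transsulfuration enzyme that makes cysteine, measured 11.54, 11.64, 12.24, 11.84 and 12.50 in 3aKO and 10.76, 10.10, 10.85 and 11.32 in the tumours. The groups do not overlap, with a change of -1.19 ± 0.26 (limma, adjusted p = 0.026) and wt at 0.40. Tdo2, the first enzyme of tryptophan breakdown, measured 13.03, 13.51, 13.06, 13.34 and 13.43 in 3aKO and 12.79, 12.13, 11.86 and 12.66 in the tumours. All normal livers lie above all tumours, with wt at 12.99 to 13.75, and the change was -0.92 ± 0.19 (limma, adjusted p = 0.0242). Aass of lysine breakdown fell by 0.73 ± 0.14 and Ahcy of the methionine cycle by 0.72 ± 0.13 (limma, adjusted p = 0.0179 and 0.0159), also apart from all normal livers.

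The other enzymes that fell were Gnmt (methionine cycle), Aldh4a1 (proline), Mccc1 and Mccc2 (leucine), Bckdha, Bckdhb and Aldh6a1 (branched-chain amino acids), Hgd and Hpd (tyrosine), Amdhd1 (histidine), Haao (tryptophan), the mitochondrial carrier Slc25a13 and Cps1. Cps1, the entry enzyme of the urea cycle, measured 13.85, 13.84, 13.84, 13.81 and 13.91 in 3aKO and 13.32, 13.38, 13.34 and 13.66 in the tumours. Tumours and 3aKO liver were apart although the change was small, -0.43 ± 0.09 (limma, adjusted p = 0.0215), and wt lay at 13.41 to 14.02. Slc25a13, the aspartate and glutamate carrier, fell by 0.77 ± 0.20 (limma, adjusted p = 0.0418), with wt at 0.36. The median place of wt over the 18 genes was 0.37.

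Most general hepatocyte products did not pass the test. The 6 measured hepatocyte markers had a median change of -0.09 and a mean level of 14.12 to 14.21 in 3aKO and 13.91 to 14.13 in the tumours, with Cps1 the only one that fell. Albumin (Alb) measured 14.86 to 14.93 in 3aKO and 14.80 to 14.92 in the tumours. Of 35 hepatocyte identity and secretory genes 1 rose (2.86%) and 5 fell (14.3%), where 2.92% of all genes rose and 6.27% fell. The median of this list was -0.08. Apob, the structural protein of very low density lipoprotein, measured 13.00, 13.01, 12.82, 12.69 and 13.00 in 3aKO and 11.44, 11.99, 11.50 and 11.73 in the tumours. The groups lie far apart and the change was -1.24 ± 0.12 (limma, adjusted p = 0.00398), but wt ran from 11.34 to 13.15. Prox1 and Cebpa, transcription factors of hepatocytes, fell by 0.67 ± 0.15 and 0.43 ± 0.09 (limma, adjusted p = 0.0268 and 0.027), and Nr5a2, a nuclear receptor, fell by 0.39 (limma, adjusted p = 0.0496). Apoc2, a cofactor of lipoprotein lipase, rose by 0.97 ± 0.24 (limma, adjusted p = 0.0376), with all wt below all tumours.

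Bile acid transport and synthesis genes fell in part. Of 31 measured genes 7 fell (22.6%, where 6.27% of all genes fell) and 0 rose. The median change was -0.44, with medians of -0.15, -0.67, -0.56 and -0.26 in tumours 1 to 4. Without 3aKO replicates 1 to 5 in turn 6, 3, 4, 2 and 4 fell, and without tumours 1 to 4 in turn 10, 5, 3 and 5 did. The export pump Abcb11 measured 12.04, 12.05, 12.00, 12.12 and 11.65 in 3aKO and 11.31, 10.91, 11.36 and 11.61 in the tumours. The groups do not overlap, by a narrow margin, and the change was -0.67 ± 0.14 (limma, adjusted p = 0.0251), with wt at 0.58. Slc10a1, the uptake transporter, fell by 0.67 ± 0.17, Abcc3, an exporter toward the blood, by 1.42 ± 0.33 and Amacr, a racemase of side-chain oxidation, by 0.81 ± 0.15 (limma, adjusted p = 0.0418, 0.0321 and 0.0192). In Slc10a1, Abcc3 and Amacr wt 6 and wt 7 lay at 0.40, 0.81 and 1.60, and the other wt arrays at 0.22, 0.30 and 0.03. Slc27a5, which activates bile acids for conjugation, fell by 0.53 ± 0.10 with all normal livers above all tumours, and the receptor pair Fgfr4 and Klb, which carries the signal of intestinal FGF15, fell by 0.49 ± 0.11 and 0.48 ± 0.10 (limma, adjusted p = 0.018, 0.0279 and 0.0222). Cyp7a1, the rate-limiting enzyme of synthesis and named after its values were seen, had a difference of -0.39 ± 0.52 (limma, adjusted p = 0.643).

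Genes of the respiratory chain fell by small amounts. Of 57 measured subunit genes 13 fell (22.8%, where 6.27% of all genes fell) and 0 rose. Of the differences 53 were below 0, and the median was -0.18. Sdha, the catalytic subunit of complex II, measured 11.96, 11.88, 11.92, 12.11 and 12.06 in 3aKO and 11.61, 11.44, 11.24 and 11.47 in the tumours. Tumours and 3aKO liver were apart, the change was -0.55 ± 0.09 (limma, adjusted p = 0.0145), and the wt mean lay at 0.22. The complex I genes Ndufa6 and Ndufs1 fell by 0.50 ± 0.11 and 0.48 ± 0.09 and Sdhb by 0.41 ± 0.10 (limma, adjusted p = 0.0261, 0.0191 and 0.0349). Fits that left out 3aKO replicates 1 to 5 in turn called 7, 4, 5, 3 and 5 of the 57 lower, and without tumours 1 to 4 in turn 15, 5, 3 and 9 did. With sex as a covariate 0 of these genes were called by limma, and the median place of wt 6 and wt 7 over the 13 was 0.49, against 0.09 for the other wt arrays.

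Drug-metabolizing cytochrome P450 genes had a median change of -0.62, and of 39 measured genes 5 fell (12.8%, where 6.27% of all genes fell) and 0 rose. Cyp2b10, an enzyme induced through the receptor CAR, measured 9.0, 7.48, 8.48, 10.41 and 9.04 in 3aKO and 7.07, 7.07, 6.71 and 6.18 in the tumours. The groups do not overlap, with a change of -2.13 ± 0.48 (limma, adjusted p = 0.0293), but the wt mean lay at 0.80 and the wt median, 6.45, was below 3 of the 4 tumours. Cyp4f15 fell by 0.94 ± 0.19, Cyp3a25 by 0.81 ± 0.22, Cyp2j5 by 0.64 ± 0.14 and Cyp4f14 by 0.46 (limma, adjusted p = 0.0231, 0.0497, 0.0266 and 0.0336). Of these 5, Cyp2j5 alone had all wt arrays above all tumours. Without 3aKO replicates 1 to 5 in turn 4, 2, 3, 1 and 1 fell, and without tumours 1 to 4 in turn 4, 4, 0 and 3 did.

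Several interferon response genes were higher in the tumours, and the list was highest in tumour 3. The median over the list, against the 3aKO mean, was 0.13, 0.70, 1.55 and 0.20 in tumours 1 to 4. It ran from -0.34 to 0.37 in the 3aKO arrays and from -0.35 to 0.54 in wt, so tumours 1 and 4 lay within the range of the normal livers. Of 41 measured genes 8 rose (19.5%) and 1 fell (2.44%), against 2.92% and 6.27% of all genes. Of the differences 40 were above 0, and the median was 0.67. In tumour 3, 40 of the 41 lay above every 3aKO array, against 13, 22 and 15 in tumours 1, 2 and 4. Over all genes the shares were 28.2%, 28.9%, 24.2% and 25.6% in tumours 1 to 4. Ifi27l2b measured 7.64, 7.40, 7.79, 7.44 and 7.55 in 3aKO and 8.96, 11.17, 10.26 and 9.71 in the tumours. It separated all normal livers (wt 7.10 to 8.02) from all tumours, with a change of 2.46 ± 0.35 (limma, adjusted p = 0.0109). Oasl1, of the oligoadenylate synthetase family, measured 6.33, 6.16, 7.25, 6.08 and 5.98 in 3aKO and 7.86, 8.09, 8.55 and 8.48 in the tumours. Tumours and 3aKO liver were apart, the change was 1.88 ± 0.25 (limma, adjusted p = 0.00938), and wt reached 7.98. The number that rose was 5, 3, 5, 3 and 5 without 3aKO replicates 1 to 5 in turn, and without tumours 1 to 4 in turn 9, 3, 3 and 3 did. Usp18, a protease that removes ISG15, rose by 1.70 ± 0.36 and Ifi27l2a by 1.88 ± 0.48 (limma, adjusted p = 0.0242 and 0.0415), while Eif2ak2, the double-stranded RNA kinase, fell by 0.69 (limma, adjusted p = 0.01). Over the 8 genes that rose the median place of wt 6 and wt 7 was 0.43, against -0.06 for the other wt arrays.

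Macrophage markers and antigen presentation genes were high in the same tumour. Of 21 measured macrophage and Kupffer cell markers 4 rose and 1 fell; their median was -0.10, -0.02, 1.36 and 0.16 in tumours 1 to 4, and the mean level ran from 8.10 to 8.87 in 3aKO and from 8.37 to 9.52 in the tumours, with no marker at 0. Lyz1 and Lyz2, lysozyme genes of near-identical sequence whose probe sets may share signal, rose by 1.04 ± 0.24 and 1.06 ± 0.27 and Trem2, a lipid receptor, by 0.51 ± 0.10 (limma, adjusted p = 0.0316, 0.0397 and 0.0222). Cd163, the haemoglobin scavenger receptor, measured 6.95, 6.46, 5.71, 6.59 and 5.45 in 3aKO and 5.29, 3.24, 4.64 and 5.00 in the tumours. It went the other way, with a change of -1.69 ± 0.43 (limma, adjusted p = 0.0403), and all wt livers (5.48 to 7.15) were above all tumours. Of the 16 MHC genes 0 passed the test (limma, smallest adjusted p = 0.106, for H2-Ob). In tumour 3, 15 of them lay above every 3aKO array, where 24.2% of all genes did. Without 3aKO replicates 1 to 5 in turn 4, 2, 1, 0 and 1 of the macrophage markers rose, and without tumours 1 to 4 in turn 4, 2, 3 and 1 did. The part of the macrophage markers in the interferon result was not tested.

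Lipid and stress pathways gave scattered calls, beside 2.92% higher and 6.27% lower among all genes. In cholesterol synthesis 2 of 20 genes rose, Nsdhl by 0.90 ± 0.23 and Dhcr7 by 0.85 ± 0.19 (limma, adjusted p = 0.04 and 0.0301), with a list median of 0.63; wt ran on both sides, from 9.20 to 11.80 for Nsdhl. In fatty acid synthesis 0 of 30 passed (limma; Elovl2, of lowest p, had a difference of -0.41 ± 0.12 and adjusted p = 0.0536). Pdk4, a kinase that blocks glucose oxidation, rose by 0.99 ± 0.17 and Acads, a short-chain acyl-CoA dehydrogenase, fell by 0.49 ± 0.10 (limma, adjusted p = 0.0145 and 0.0209), out of 32 PPARalpha and fatty acid oxidation genes with a median of -0.41. Pcx, pyruvate carboxylase, fell by 1.03 ± 0.15, Bnip3, a mitophagy receptor, by 0.55 ± 0.13 and Vegfa, the vascular growth factor, by 0.47 ± 0.13 (limma, adjusted p = 0.012, 0.0324 and 0.0497), and Eno2, a glycolytic enzyme, rose by 0.30 ± 0.08 (limma, adjusted p = 0.05). Srxn1, which reduces peroxiredoxins, rose by 0.72 ± 0.12 and Tkt, transketolase, fell by 0.66 ± 0.18 (limma, adjusted p = 0.0143 and 0.0483), and all wt livers had less Srxn1 than any tumour.

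**Figure D5:**
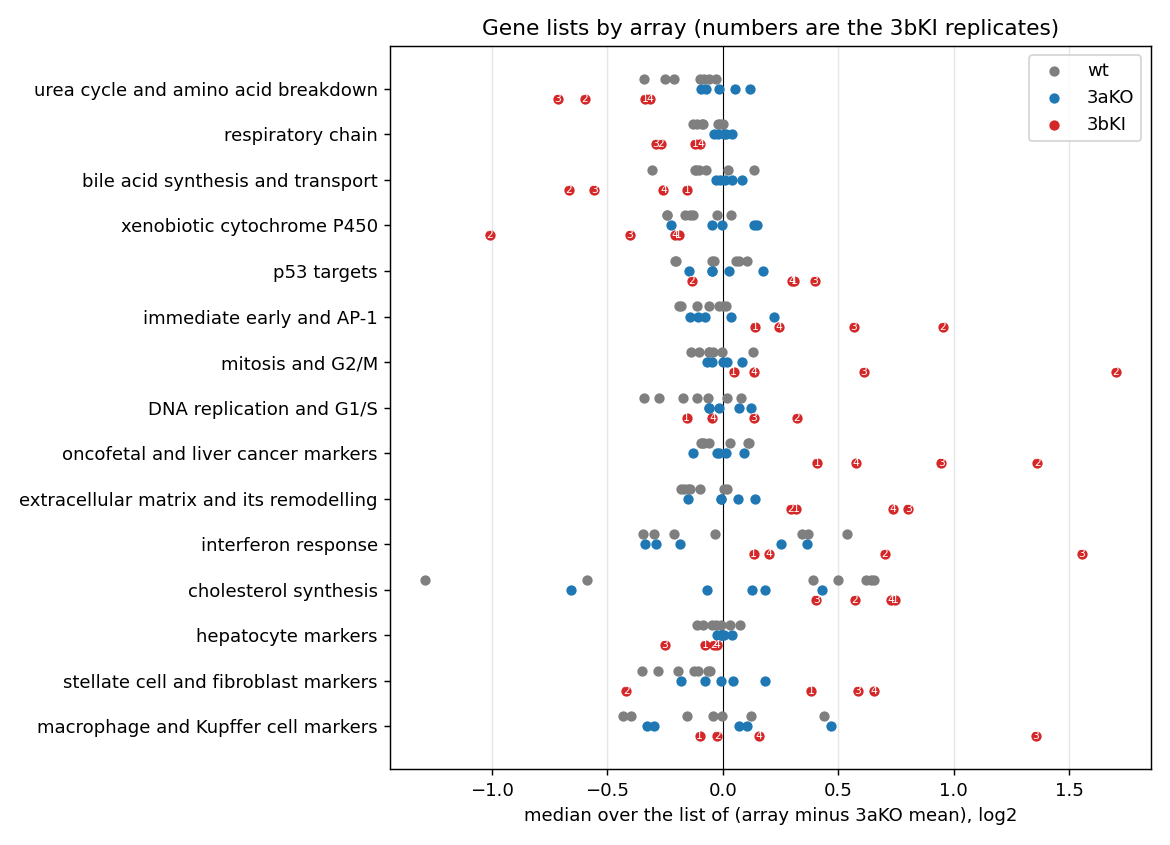
Median over each gene list of the array's value minus the 3aKO mean (log2), for the 7 wt (grey), 5 3aKO (blue) and 4 3bKI (red, numbered) arrays. Amino acid genes are low in the tumours (-0.32 to -0.72), with wt 7 (-0.34) as low as tumours 1 and 4, mitosis genes are high mainly in tumours 2 (1.70) and 3 (0.61), and interferon genes mainly in tumour 3 (1.55).

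The genes with the largest increases outside these lists were of several kinds. Mtmr11, of the myotubularin family, measured 5.65, 4.66, 5.52, 4.73 and 4.74 in 3aKO and 7.12, 8.96, 7.69 and 7.82 in the tumours. All normal livers (wt 4.38 to 6.63) lie below all tumours, and the change was 2.84 ± 0.35 (limma, adjusted p = 0.00857). Slpi, a secreted protease inhibitor gene, measured 7.94, 7.74, 8.50, 7.86 and 8.38 in 3aKO and 9.35, 12.72, 11.70 and 8.94 in the tumours. It also lay above all normal livers (wt 7.53 to 8.54), but tumours 2 and 3 were far above tumours 1 and 4, and the change of 2.59 ± 0.68 had adjusted p = 0.0448 (limma). Smoc2, a matrix-associated calcium-binding protein gene, rose by 1.98 ± 0.20, Pls1, an actin-bundling protein gene, by 2.01 ± 0.39 and Tceal8 by 2.19 ± 0.34 (limma, adjusted p = 0.00398, 0.0204 and 0.013), each with wt below the tumours.

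Other large increases were shared in part with wt. Lpl, lipoprotein lipase, measured 9.20, 12.64, 10.64 and 9.68 in the tumours and 7.66 to 8.62 in 3aKO, with wt up to 10.84 and adjusted p = 0.0376 (limma). A2ml1, a protease inhibitor gene, rose by 2.75 ± 0.45, Wfdc15b, of the whey acidic protein family, by 2.41 ± 0.42, Fkbp11, a prolyl isomerase of the secretory pathway, by 2.14 ± 0.52 and Dnaic1, an axonemal dynein chain, by 2.59 ± 0.63 (limma, adjusted p = 0.0141, 0.0153, 0.0357 and 0.0367). Their highest wt arrays, 8.75, 8.62, 9.10 and 8.85, exceeded the lowest tumour in each case. The other Fkbp11 probe sets differed by 0.09 and 0.51 and did not pass (limma over all probe sets, adjusted p = 0.738 and 0.068).

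Among the largest decreases, Cnmd, which encodes the angiogenesis inhibitor chondromodulin, measured 6.79, 7.33, 7.46, 8.87 and 7.78 in 3aKO and 4.76, 3.85, 5.60 and 6.16 in the tumours. All normal livers (wt 7.32 to 8.20) lie above all tumours, the wt mean equals that of 3aKO (place 0.00), and the change was -2.55 ± 0.50 (limma, adjusted p = 0.0204). Retreg3, a receptor for turnover of the endoplasmic reticulum, measured 9.13, 9.28, 9.17, 8.89 and 8.98 in 3aKO and 7.28, 7.46, 7.72 and 7.30 in the tumours. It had the smallest adjusted p of the named genes (limma, 0.000975) with a change of -1.65 ± 0.12, yet wt ran from 7.10 to 9.10. For Retreg3 the place of wt 6 and wt 7 was 1.12, past the tumour mean, and that of the other wt arrays was 0.17. A second Retreg3 probe set fell by 0.56 ± 0.10 (limma over all probe sets, adjusted p = 0.0119), and another, at a low level of 2.93 in 3aKO, differed by 0.03 ± 0.12. Abcc6, an efflux transporter, fell by 1.51 ± 0.23, Etfbkmt, a lysine methyltransferase, by 1.62 ± 0.38 and Sult2a8, a bile acid sulfotransferase of mouse liver, by 1.29 ± 0.24 (limma, adjusted p = 0.0125, 0.0333 and 0.0192), with all wt above the tumours.

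In some of the largest decreases the wt mean lay nearer the tumours than 3aKO liver. Etnppl, a phospholyase of phosphoethanolamine, measured 11.24, 11.48, 9.31, 10.69 and 10.62 in 3aKO and 8.82, 7.27, 7.62 and 9.0 in the tumours. The change from 3aKO was -2.49 ± 0.48 (limma, adjusted p = 0.0197), whereas wt ran from 8.31 to 9.25 and the difference from wt was -0.62 (limma, adjusted p = 0.295). Ephb6, an ephrin receptor gene, fell by 1.71 ± 0.29 and Tmtc2, an endoplasmic reticulum mannosyltransferase, by 1.99 ± 0.32 (limma, adjusted p = 0.0143 and 0.013), with wt places of 0.63 and 0.57. In other large decreases the wt mean lay nearer 3aKO. Pcp4l1, a calmodulin-binding protein gene, Ugt3a1, a glycosyltransferase, Akr1c19, an aldo-keto reductase, and Abca8a, a lipid transporter, fell by 1.51, 1.41, 1.35 and 1.24 (limma, adjusted p = 0.0225, 0.0338, 0.0335 and 0.0196), with wt places of 0.30, 0.11, 0.35 and 0.23.

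The wt mean was level with the tumours in some increases. Lrg1 and Serpina3n, acute phase genes of hepatocytes, rose over 3aKO by 0.90 ± 0.14 and 0.76 ± 0.12 (limma, adjusted p = 0.0123 and 0.013) without overlap. Their wt means, however, lay at 0.97 and 1.01, level with the tumours, and the differences from wt were 0.03 and -0.01. Il6ra, the receptor of interleukin-6, fell by 0.75 ± 0.20 (limma, adjusted p = 0.0445) with the wt mean near that of 3aKO, at 0.11. Of 32 acute phase genes 3 rose and 1 fell, where 2.92% of all genes rose and 6.27% fell. Prtn3, proteinase 3 of neutrophils, measured 4.72, 9.09, 8.50 and 8.83 in the tumours and 4.50 to 4.93 in 3aKO, so tumour 1 was at the 3aKO level; the change was 3.02 ± 0.76 (limma, adjusted p = 0.0396) and wt reached 9.16. Gpc1, a cell surface proteoglycan gene, rose by 1.06 ± 0.19 with wt at 0.52, and Ccdc30 by 1.01 ± 0.25 with wt at 1.12 (limma, adjusted p = 0.0165 and 0.0369).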

How the data were processed

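The series measured liver RNA on Affymetrix arrays, and the authors deposited log2 expression values for 45101 probe sets. How they were normalized is not given in the sources used here; the labels say only that wt and 3aKO were normalized once with another tumour group (normalization 1) and once with 3bKI (normalization 2), and the second set was used. Of the probe sets 34945 had 1 gene symbol in the platform annotation, 932 several and 9160 none, besides 64 controls. Each of 18193 genes was represented by the probe set of highest mean. For some called genes, among them Tkt, Vegfa, Atr and Gins1, the other probe sets differed by less and did not pass the test. The 4 3bKI and 5 3aKO arrays were compared with limma 3.58.1 in R 4.3.3 (lmFit, eBayes, two-sided, Benjamini-Hochberg over all genes, threshold 0.05), after tests on simulated data; 3bKI and 3aKO were each fitted against wt separately. The number of arrays limits the precision.

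Named genes were E2f1, E2f2 and E2f3, the 15 largest increases and 15 largest decreases without overlap, in each list the 4 called members of largest change or the 2 of lowest p, and the 4 of at least 2-fold in each direction whose wt mean lay nearest the tumours. Other genes named are further called list members or were chosen after their values were seen. The comparison, the 29 pathway and 12 cell type lists were chosen with earlier results of these data known. Alternatives were quantile normalization, centring, a filter on dim genes, other uses of probe sets, wt in the fit, trend and robust, array weights, a replicate block, sex, the beta-actin ratio and leaving out each array; the fits of the tumours against parts of wt were added after the values were seen.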

Additional observations from a re-analysis of the deposited data

Results flagged for a closer look

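Of the values of the 126 named genes and the medians of the 41 lists, 22 stood far from the rest of their group, by a gap test that chance passes in about 1 in 20 groups. With this many genes and lists, chance at that rate would give a large part of the 22, so a single flag carries little weight. In tumour 2, the array of unclear sex, 9 of them lay: Mmp12 was high at 6.62, Gins1 at 6.21, Prf1 (perforin) at 6.08 and the median of the DNA repair genes at 0.12 above the 3aKO mean, while Slco1a1, a male-biased transporter, was low at 9.49, Car2 (carbonic anhydrase) at 9.67, the proteasome subunit gene Psmc1 at 9.07, the clock gene Cry2 at 7.05 and the median of the growth factor and growth hormone genes at -0.0913. Tumour 1 was low in Prtn3 (4.72), in Srxn1 (9.27) and in the endothelial marker median (-0.19). Tumour 3 was low in the median of the hepatocyte identity genes (-0.20) and of the pancreas markers (-0.0857), and high in that of the glycolysis genes (0.0321).

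Among the 3aKO arrays, replicate 2 was high for A2ml1 (6.91) and low for the median of the female-biased liver genes (-2.02), and it was male by its Y-linked genes. Replicate 1 was low for Sult2a8 (12.26), replicate 3 high for Oasl1 (7.25), replicate 4 high for Tfdp2 (8.24), and replicate 5 low for Abcb11 (11.65) and Dnajc3 (10.20).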

How the results depend on the processing

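The counts of genes called were the most fragile results. Against 531 higher and 1140 lower, quantile normalization gave 322 and 522, centring each array 328 and 1638, every probe set on its own 914 and 2211, sex as a covariate 62 and 83, females alone 16 and 15, and the beta-actin ratio as a covariate 0 and 0 by limma; the cause was not tested. Leaving out 1 array gave 126 to 509 higher and 364 to 931 lower. Array weights, the mean of the probe sets, trend and robust, the filter on dim genes and wt in the fit kept both counts within 1.5 times.

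With the replicate number as a block 19 genes were higher and 31 lower. The labels give the numbers no meaning as pairs, and they were not taken as such: same-numbered deviations correlated at 0.129, 0.114, 0.278 and 0.063, the last under the 0.1 asked of every pair, and 2 of 4 correlated best with their own number.

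Under the beta-actin covariate, which separates the groups and so cannot be told apart from them, some directions turned. The change turned to -0.65 for Dnaic1, 0.021 for Atr, 0.0911 for Ei24, 0.24 for Cth, 0.0272 for Herpud1 and -0.15 for Cela3b. The median turned to -0.25 for mitosis, -0.082 for DNA repair, 0.80 for clock and -0.0225 for pancreas genes. The mean of the probe sets turned Dnajc3 to -0.12. Without the dimmest genes the DNA repair median was -0.20 and the erythroid one -0.0191, and after quantile normalization that of adipocyte and muscle markers was -0.0316. No named gene that was called changed direction when 1 array was left out, and 15 to 58 of the 126 lost their call.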

Other observations

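Some markers of other cell types were higher in the tumours, where 2.92% of all genes rose. Among 15 cholangiocyte markers 2 rose (13.3%): Pkhd1, the fibrocystin gene, rose by 1.35 ± 0.37 and Cldn7, a tight junction claudin, by 1.31 ± 0.25 (limma, adjusted p = 0.0483 and 0.0197); Cldn7 was above all wt livers in every tumour. The median of the list was 0.34, and 7, 8, 10 and 7 of the 15 lay above every 3aKO array in tumours 1 to 4, where 24.2% to 28.9% of all genes did. Single markers rose among endothelial genes (Cd34, by 0.94 ± 0.25), B cell genes (Cd79a, by 0.40 ± 0.11) and neutrophil genes (Elane, by 0.41 ± 0.09), with limma adjusted p = 0.0448, 0.0497 and 0.0247. Of 19 T and NK cell markers 0 passed (limma; Prf1, of lowest p, had adjusted p = 0.138), and the erythroid list and the adipocyte and muscle list had 0 calls, with medians of 0.15 and 0.06. Of 11 pancreas acinar genes 2 (18.2%), Cela2a and Cela3b, rose by 0.81 ± 0.22 and 0.59 ± 0.16 (limma, adjusted p = 0.0456 and 0.0448), and the wt livers reached 6.34 and 6.95, above most tumours for Cela2a.

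Growth factor and housekeeping pathways gave scattered calls, beside 2.92% higher and 6.27% lower among all genes. Igfbp7, a secreted binding protein of the vessel wall, measured 11.32, 10.81, 10.71, 11.07 and 11.06 in 3aKO and 11.53, 11.55, 12.00 and 11.84 in the tumours, and rose by 0.74 ± 0.14 (limma, adjusted p = 0.0205). Its other probe sets differed by 0.0048 and 0.17 and did not pass (limma over all probe sets, adjusted p = 0.978 and 0.441). The insulin receptor gene Insr fell by 0.50 ± 0.12 (limma, adjusted p = 0.0388), with wt 6 and wt 7 at 0.73. The other Insr probe sets differed by 0.12 and -0.05 and did not pass (limma over all probe sets, adjusted p = 0.438 and 0.775). Atr, the checkpoint kinase, fell by 0.52 ± 0.12, with all wt above all tumours, and Exo1, a repair exonuclease, rose by 0.38 ± 0.08 at a low level (limma, adjusted p = 0.0342 and 0.0218). Of 31 proteasome genes 2 fell (6.45%), near the 6.27% of all genes that fell, and the list median was -0.01. They were Psmc1 and Psmd2, which fell by 0.52 ± 0.11 and 0.45 ± 0.09 (limma, adjusted p = 0.0224 and 0.0209). In Psmc1 and Psmd2 wt 6 and wt 7 lay at 0.81 and 1.19, and the other wt arrays at -0.25 and -0.02. Of 35 stress genes of the endoplasmic reticulum Dnajc3 rose by 0.45 ± 0.11 beside Atf3, although its 4 other probe sets differed by -0.16, -0.27, -0.19 and -0.44 and the mean of its probe sets by -0.12, and Herpud1 fell by 0.57 ± 0.16 (limma, adjusted p = 0.0342 and 0.0493). No member of the male-biased, clock or DNA methylation and Polycomb lists was called by limma (lowest adjusted p = 0.0847 for Slco1a1, 0.12 for Rora and 0.112 for Dnmt3b); their medians were -0.70, -0.45 and -0.06.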
